A study of Mus musculus with 2 samples.

Results

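Pre-mRNA splicing factor genes were followed in blood stem cells of the mouse (HSCs, hematopoietic stem cells) split by whether they expressed SATB1, a nuclear protein that organizes chromatin. The set held the genes whose deposited symbol is Srsf followed by a number or begins with Hnrnp, Sf3a or Sf3b, together with U2af1, U2af1l4, U2af2, Zrsr2, Sf1, Tra2a, Tra2b, Prpf8, Luc7l2 and Ddx41. This gave 47 genes of the 23210 analysed. They were 11 SR protein genes, 2 Tra2 genes, 18 hnRNP genes, 3 SF3A and 5 SF3B subunits, 5 factors that read the 3′ splice site, and Prpf8, Luc7l2 and Ddx41.

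Both groups were mouse bone marrow HSCs sorted as CD150+ Flt3- LSK cells (negative for lineage markers, positive for Sca-1 and Kit) by a Satb1-Tomato reporter, 1 library from Tomato-negative cells (SATB1-negative) and 1 from Tomato-positive cells (SATB1-positive). The sources used here do not give the animals' number, age or strain, or alleles besides the reporter. RNA was sequenced and deposited as FPKM, which scales the fragments of a gene by its transcript length and the library's size, so levels of different genes can be compared. The design asks how far each gene in SATB1-positive HSCs departs from its level in SATB1-negative HSCs. With 1 library a group there is no replicate spread, and the differences describe these 2 libraries and carry no test. Where a pair of values is given, the SATB1-negative library comes first, and "without" and "with" SATB1 refer to the reporter.

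Splicing removes introns in steps. The U1 particle reads the 5′ splice site, while SF1 binds the branch point and the U2AF dimer binds the pyrimidine tract and the AG at the 3′ end of the intron. The U2 particle, with its SF3A and SF3B complexes, then takes over the branch point, and PRPF8 of the U5 particle lies at the catalytic center. SR proteins mostly promote the use of the exons they bind, and hnRNPs often oppose them or package the transcript. In the blood system several of these genes, among them SF3B1, SRSF2, U2AF1 and ZRSR2, are recurrently mutated in human myelodysplastic syndromes.

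Many SR protein genes hold a so-called poison exon, whose inclusion brings a premature stop codon and sends the transcript to nonsense-mediated decay. This is a feature of the sequence that the choice of genes by name did not use. Of the 10 SR protein genes with at least 5 FPKM, 9 had a transcript of the nonsense-mediated decay class in GENCODE M21, as had both Tra2 genes. The class was present for 31.7% of the 8994 protein-coding genes at that level. The median number of annotated transcripts was 7.5 for the 10 SR protein genes and 5 for the 8994 genes. The part of this number in the shares was not tested. In 6 of these 10 SR protein genes and in both Tra2 genes, a transcript of the class held an extra internal exon with the stop codon. That exon was absent from the RefSeq-linked coding transcripts. Such an exon was present in 8.84% of the 8994 genes. Of the 17 hnRNP genes with at least 5 FPKM, 8 had a transcript of the class and 1, Hnrnpl, had such an exon. The trait was not confined to SR and Tra2 genes. Of the 5 factors of the 3′ splice site, 4 had a transcript of the class and 2, U2af1 and U2af2, had such an exon. Of the 5 SF3B subunits, 1, Sf3b1, had both. The coding stretch of 1 such exon is shown for 5 of the SR protein genes and for both Tra2 genes, from the exon's first base to its stop codon, which is in capitals (mm10, 5′ to 3′ on the strand of the gene).
Srsf3 (chr17:29039454-29039487, + strand): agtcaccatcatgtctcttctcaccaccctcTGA
Srsf4 (chr4:131884276-131884390, + strand): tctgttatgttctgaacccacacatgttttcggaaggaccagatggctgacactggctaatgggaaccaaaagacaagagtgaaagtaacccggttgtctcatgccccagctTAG
Srsf6 (chr2:162932815-162932966, + strand): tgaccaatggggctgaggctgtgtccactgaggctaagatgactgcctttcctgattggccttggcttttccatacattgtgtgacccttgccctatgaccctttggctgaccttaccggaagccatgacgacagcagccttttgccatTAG
Srsf7 (chr17:80205054-80205081, - strand): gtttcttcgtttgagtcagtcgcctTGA
Srsf9 (chr5:115328347-115328428, + strand): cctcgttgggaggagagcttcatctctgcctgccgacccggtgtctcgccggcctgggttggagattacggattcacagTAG
Tra2a (chr6:49252965-49253108, - strand): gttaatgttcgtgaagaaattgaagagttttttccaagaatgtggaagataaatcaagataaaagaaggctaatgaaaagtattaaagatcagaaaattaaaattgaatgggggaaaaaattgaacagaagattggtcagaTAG
Tra2b (chr16:22259181-22259261, - strand): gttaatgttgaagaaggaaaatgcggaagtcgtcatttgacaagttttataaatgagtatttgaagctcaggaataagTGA
The Tra2a and Tra2b stretches open with the same 9 bases, gttaatgtt. The stretches run from 28 bases in Srsf7 to 152 in Srsf6. The deposited files give 1 value per gene, so the share of transcripts that included these exons was not measured, and the values below take all isoforms of a gene together.

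**Figure D1:**
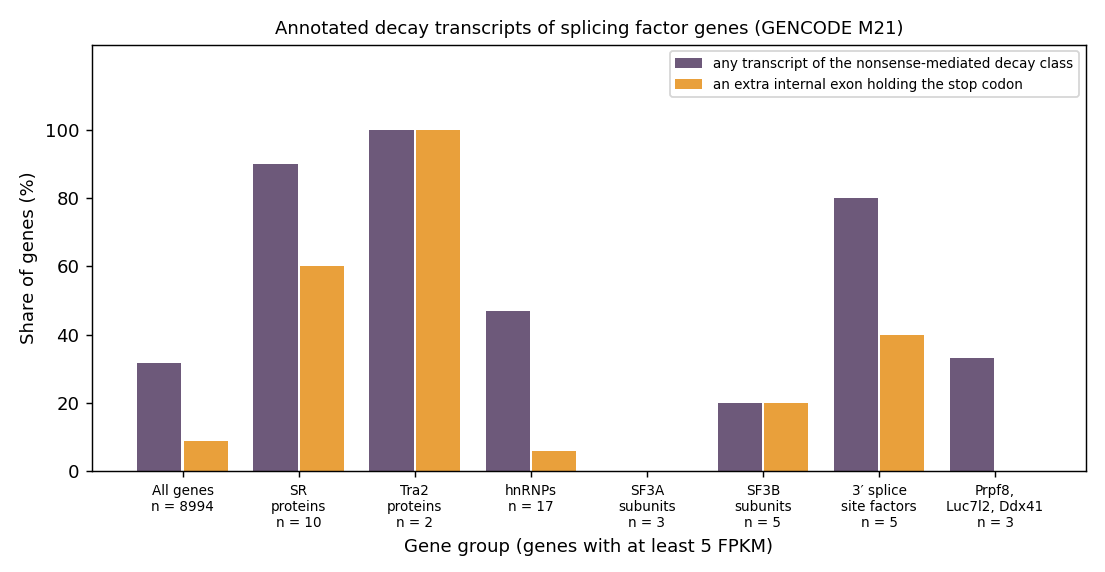
Share of genes (y axis, percent) with a transcript of the nonsense-mediated decay class (purple) and with an extra internal exon holding the stop codon (orange), for all protein-coding genes and for each group of splicing factors, each gene having 5 FPKM or more in a library; n is the number of genes. SR proteins reach 90.0% and 60.0%, against 31.7% and 8.84% of all genes. None of the 3 SF3A genes has either, and with 3 genes a count of 0 differs little from the shares of all genes.

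Splicing factor genes were abundant in both libraries. Of the 47 genes, 43 had a mean of at least 20 FPKM and 22 a mean of at least 100 FPKM. Among the 9308 genes that had 5 FPKM or more in at least 1 library, 53.9% and 9.48% reached these means. Unlike that background, the 47 include Srsf12 and Hnrnpul2, which are below 5 FPKM. Together the 47 genes made up 1.41% of the summed FPKM without and 1.51% with SATB1. Srsf12 stayed below 1 FPKM and Hnrnpul2 below 5 FPKM in both libraries. Hnrnpk, whose product binds C-rich RNA and DNA, was the most abundant at 982 FPKM without and 869.5 FPKM with SATB1, followed by Hnrnpf, a binder of G-rich tracts, at 657 and 689 FPKM. Srsf5 led the SR proteins at 521 and 505 FPKM.

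**Figure D2:**
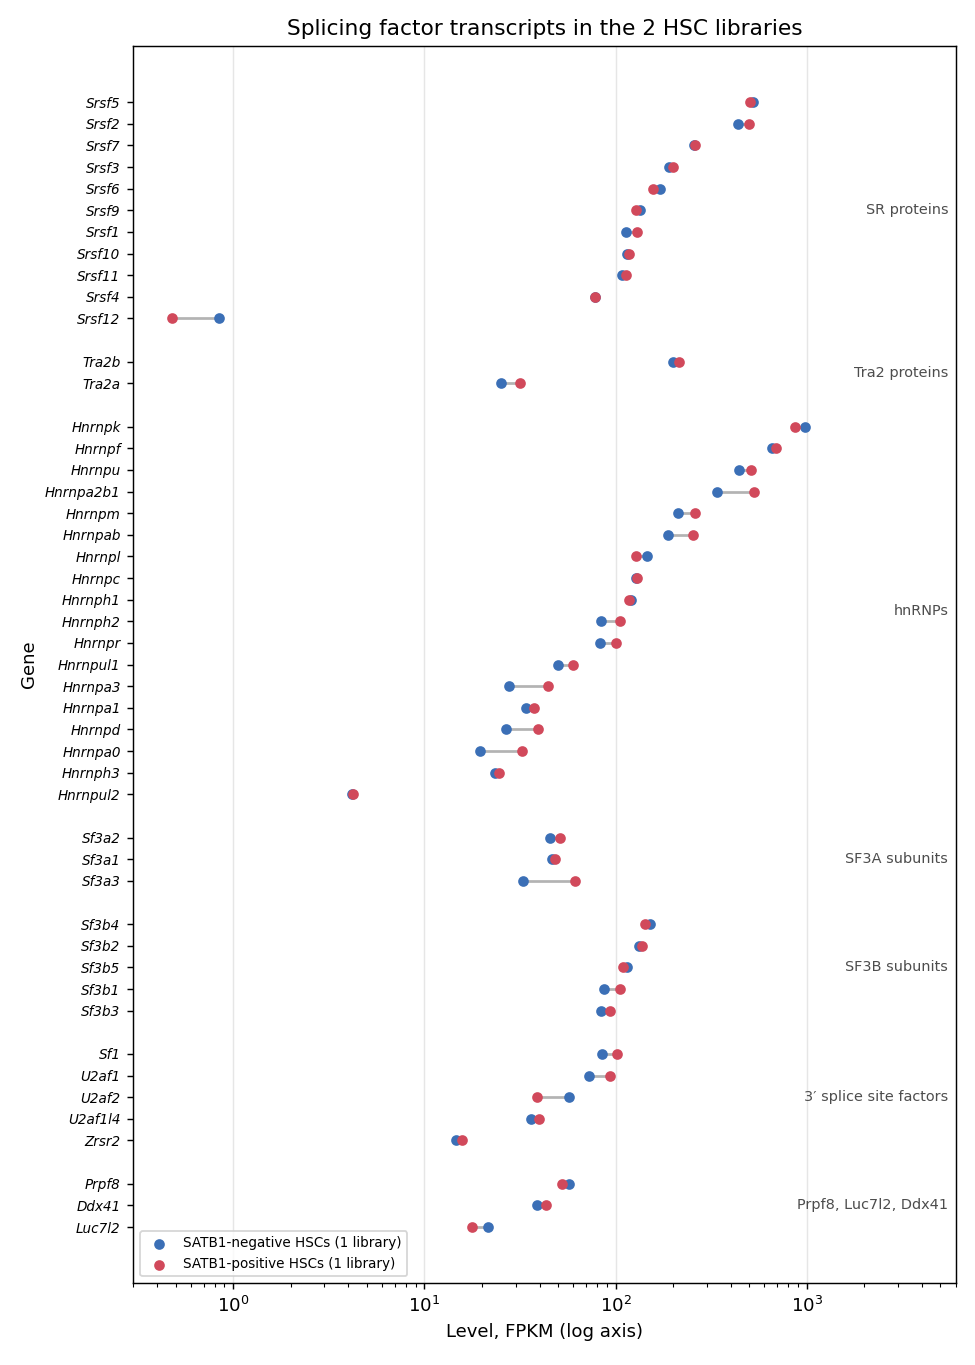
Level of each of the 47 genes (x axis, FPKM on a log axis) in the SATB1-negative (blue) and SATB1-positive (red) library, by group and ordered by mean level within it. The blue and red points of most SR proteins nearly coincide, while Hnrnpa2b1, Hnrnpa3, Hnrnpd, Hnrnpa0, Sf3a3 and U2af2 lie apart.

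Differences are given as a log2 ratio of the SATB1-positive over the SATB1-negative FPKM after 1 FPKM was added to each, which understates the difference of genes near 1 FPKM. None of the 45 splicing factor genes that had 5 FPKM or more in at least 1 library reached a log2 ratio of 1 or -1, a size that 1.31% of the 9308 genes at that level reached as higher and 0.688% as lower. At a smaller size, a log2 ratio of at least 0.5 or at most -0.5, 5 were higher (Sf3a3, Hnrnpa0, Hnrnpa3, Hnrnpa2b1 and Hnrnpd) and 1 was lower (U2af2). Over all genes this share was 5.1% higher and 4.34% lower. Among the 5015 genes with a mean of at least 20 FPKM it was 3.49% and 2.55%, and all 6 splicing factors past the size belong to the 43 members at that level. Their ratios leaned upward: 35 of the 46 genes with at least 1 FPKM had a log2 ratio above 0, against 49.0% of 11873 genes with the same filter. The median log2 ratio was 0.09, and -0.01 over all these genes, whose middle 50% ran from -0.18 to 0.16. Summed over the 47 genes, the level was 7001 FPKM without and 7523 FPKM with SATB1.

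**Figure D3:**
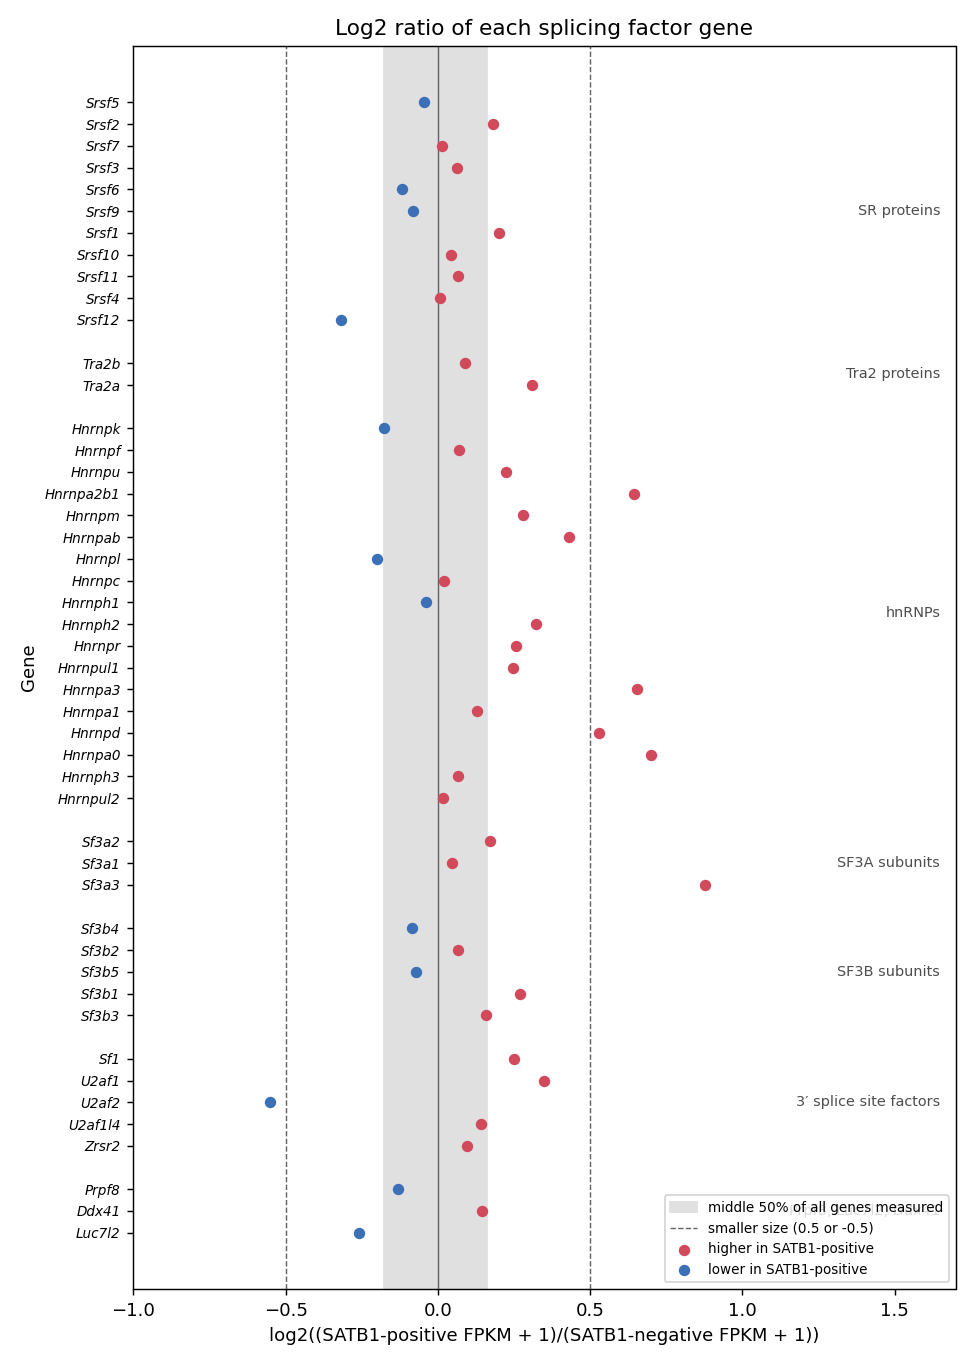
Log2 ratio of each gene (x axis), in the gene order of the plot of levels; red points are higher and blue points lower in the SATB1-positive library, the gray band is the middle 50% of all genes measured (-0.18 to 0.16), and dashed lines mark 0.5 and -0.5. Sf3a3 and 4 hnRNP genes lie right of the band's dashed line and U2af2 left of the other.

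SR proteins differed little between the libraries. Among the 10 measured genes the log2 ratio ran from -0.12 for Srsf6 to 0.20 for Srsf1, with a median of 0.03. None passed the smaller size, which 5.1% of all genes passed as higher and 4.34% as lower. Srsf1, which promotes exon inclusion through purine-rich enhancers and is the founding SR protein, was at 113 and 130.2 FPKM. Srsf2, which also takes part in transcription elongation, was at 439 and 499 FPKM, and its share of the summed SR protein level was 20.6% without and 22.8% with SATB1. Srsf5 (24.5% and 23.1%) and Srsf2 were the leading SR genes in each library. The other SR genes each held between 0.02% and 12.1% of the sum.

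Srsf3 and Srsf7, small SR proteins that also link splicing to export of the transcript, were nearly level between the libraries. Srsf3 was at 191 and 199.6 FPKM and Srsf7 at 258 and 261 FPKM. Srsf4, a long SR protein, was at 77.9 and 78.3 FPKM, but 65.4% of the 50-base words of its transcript also occur in the transcript of another gene, Gm12992. Srsf6 was at 171 and 158 FPKM and Srsf9 at 135 and 127 FPKM. Srsf10, which represses splicing when dephosphorylated, was at 114 and 118 FPKM, and Srsf11 at 108 and 113 FPKM. Srsf12 was at 0.841 and 0.479 FPKM, about 80 and 35 fragments.

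The Tra2 proteins are SR-like activators of GAA-rich enhancers. Tra2b was at 201 FPKM without and 214 FPKM with SATB1, and its paralog Tra2a at 25.2 and 31.5 FPKM. Tra2b was thus 7.96 times the level of Tra2a without and 6.78 times with SATB1.

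The largest upward ratios among the RNA-binding regulators were in the hnRNP A/B and D type, proteins with paired RNA recognition motifs that repress exons or bind AU-rich elements; this subdivision was chosen after the values were seen. Hnrnpa2b1, whose product packages nascent transcripts and binds RNA sorted for transport, was at 339.6 FPKM without and 532 FPKM with SATB1. The fold was 1.57, with an interval of 1.53 to 1.60 for counting error. Such intervals are exact 95% intervals on the split of about 15857 and 19117 fragments, estimated from the FPKM. They cover counting error only, and PCR copies can make them too narrow. Hnrnpa3, a close paralog, was at 27.7 and 44.2 FPKM, a fold of 1.60 (1.46 to 1.74). Hnrnpa0, an intronless gene, was at 19.5 and 32.4 FPKM, a fold of 1.66 (1.55 to 1.77). Hnrnpd, which encodes the AU-rich element binding protein AUF1, was at 26.7 and 39.1 FPKM, a fold of 1.46 (1.35 to 1.58). All 4 were higher in the SATB1-positive library.

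The remaining genes of this type differed less. Hnrnpab was at 188 and 254 FPKM, a log2 ratio of 0.43 that is just under the smaller size, whereas Hnrnpd at 0.53 is just above it. Hnrnpa1, a well-studied splicing repressor and antagonist of SRSF1, was at 34.2 and 37.4 FPKM, a log2 ratio of 0.13. The 6 genes together made up 17.8% of the summed hnRNP level without and 23.8% with SATB1. Srsf1 stood at 0.333 times the level of Hnrnpa2b1 without and 0.245 times with SATB1, and at 3.32 and 3.48 times the level of Hnrnpa1. Relative to Srsf1, Hnrnpa2b1 was thus higher with SATB1, while Hnrnpa1 was nearly level.

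How well reads can be assigned differs among these genes. Of the 50-base words of Hnrnpa0, 0% occur in transcripts of other genes, and the gene has 1 annotated transcript. The share was 1.85% for Hnrnpa2b1 and 5.62% for Hnrnpd. It was 28.6% for Hnrnpa3, 26.9% for Hnrnpab, which overlaps an exon of Agxt2l2 on the opposite strand, and 42.8% for Hnrnpa1, which shares words with pseudogenes. Of the 47 genes, 15 had at least 20% shared words. Outside the A/B type these include Hnrnpk (38.6%), which also overlaps an exon of Rmi1 on the opposite strand, Srsf2 (35.2%, with Mettl23 and Mfsd11), Sf3b4 (51.2%), Hnrnph2 (28.95%), Hnrnpm (28.5%), Srsf3 (26.3%) and Srsf5 (25.6%). The levels of all 15, and shares of a sum that hold them, are uncertain, since the sources used here do not say how such reads were shared out.

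Upstream sequence was compared because 3 of the A/B type genes, Hnrnpa2b1, Hnrnpa3 and Hnrnpa0, stood at nearly the same ratio. The 250 bases before the RefSeq transcription start of these genes and of Sf3a3, the gene with the highest ratio, follow 5′ to 3′ on the strand of the gene (GRCm38.p6, the mm10 assembly). GENCODE M21 starts Sf3a3 at 124714776, inside the window shown, so the end of that window lies within the gene as annotated there. Capitals mark matches on either strand to the CCAAT box (CCAAT), the GC box (GGGCGG), the E-box (CACGTG) or an ETS motif (CCGGAAG).
Hnrnpa2b1 (chr6:51469895-51470144, - strand): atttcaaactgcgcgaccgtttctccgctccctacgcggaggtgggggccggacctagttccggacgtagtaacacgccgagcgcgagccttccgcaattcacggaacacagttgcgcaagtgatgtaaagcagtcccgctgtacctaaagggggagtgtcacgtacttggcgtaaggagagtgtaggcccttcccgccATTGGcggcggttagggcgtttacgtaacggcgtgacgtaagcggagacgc
Hnrnpa3 (chr2:75659009-75659258, + strand): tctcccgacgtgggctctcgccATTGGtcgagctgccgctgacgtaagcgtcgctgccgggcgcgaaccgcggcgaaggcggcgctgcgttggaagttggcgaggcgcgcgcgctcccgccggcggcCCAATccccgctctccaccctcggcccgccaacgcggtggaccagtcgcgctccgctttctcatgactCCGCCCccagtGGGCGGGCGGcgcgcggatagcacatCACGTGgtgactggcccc
Hnrnpa0 (chr13:58128557-58128806, - strand): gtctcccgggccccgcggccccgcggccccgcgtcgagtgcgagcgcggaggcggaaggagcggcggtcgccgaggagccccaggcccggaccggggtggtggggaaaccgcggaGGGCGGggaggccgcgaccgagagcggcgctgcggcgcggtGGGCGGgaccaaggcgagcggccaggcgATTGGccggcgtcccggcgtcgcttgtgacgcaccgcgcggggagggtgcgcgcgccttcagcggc
Sf3a3 (chr4:124714611-124714860, + strand): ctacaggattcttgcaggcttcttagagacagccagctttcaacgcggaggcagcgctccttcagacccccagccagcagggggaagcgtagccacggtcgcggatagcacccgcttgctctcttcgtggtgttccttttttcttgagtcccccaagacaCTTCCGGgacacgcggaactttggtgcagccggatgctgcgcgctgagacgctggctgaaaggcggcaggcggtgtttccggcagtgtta
A CCAAT box was found in all 3 A/B type windows and not in that of Sf3a3, which held an ETS motif. Hnrnpa1, with a log2 ratio of 0.13, also held a CCAAT box, with 4 matches, and Hnrnpd did not. Of members lower in the SATB1-positive library, Hnrnpl and Hnrnpk held a CCAAT box, while Srsf6 and Srsf9 did not. The 3 genes were picked by their ratios, and a link of the motif to the ratios was not tested. Among 57 windows of 43 members, 50.9% held a CCAAT box, 71.9% a GC box, 26.3% an ETS motif and 5.3% an E-box. The shares were 33.8%, 32.7%, 6.9% and 6.0% of all 32851 windows, and 35.8%, 58.5%, 15.1% and 8.8% of the 8630 windows of genes with at least 5 FPKM. A match is a run of letters and not a measured binding site. Hnrnpa2b1 is transcribed away from Cbx3, which encodes a heterochromatin protein and starts 636 bases from it. Cbx3 was at 287 FPKM without and 268 FPKM with SATB1, so the difference of Hnrnpa2b1 was not seen in its divergent neighbor.

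The other hnRNPs were mixed. The H and F type, which bind G-rich tracts, comprised Hnrnpf, Hnrnph1 at 120.4 and 117 FPKM, Hnrnph2 at 84.0 and 105 FPKM and Hnrnph3 at 23.3 and 24.4 FPKM. For Hnrnpf, 66.4% of the words are shared with other transcripts. Hnrnpu, which also binds chromatin as scaffold attachment factor A, was at 440.1 and 514 FPKM. Hnrnpm was at 213 and 259 FPKM, Hnrnpr at 83.4 and 99.9 FPKM and Hnrnpul1 at 50.2 and 59.8 FPKM, all with log2 ratios between 0.22 and 0.28. Hnrnpul2 was at 4.19 and 4.25 FPKM. Hnrnpc, which measures the length of nascent RNA, was level at 127 and 129 FPKM.

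Hnrnpk and Hnrnpl were lower in the SATB1-positive library. Hnrnpk made up 27.5% of the summed hnRNP level without and 22.1% with SATB1. Hnrnpl, which regulates Cd45 exons in lymphocytes, was at 146 and 127 FPKM, a log2 ratio of -0.20. Both ratios are inside the smaller size. The genes Hnrpdl and Hnrpll, hnRNPs under older symbols and so outside the name rule, were at 122 and 123 FPKM and at 45.6 and 49.1 FPKM.

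The SF3A complex joins the U2 particle as a trimer of SF3A1, SF3A2 and SF3A3, and its genes did not keep their proportions. Sf3a3, which encodes a zinc finger subunit, was at 32.8 FPKM without and 61.1 FPKM with SATB1, a fold of 1.86 (1.75 to 1.98) and the highest log2 ratio of the 47 genes at 0.88. Sf3a1 was at 46.5 and 48.1 FPKM and Sf3a2 at 45.4 and 51.3 FPKM. Sf3a3 was therefore the lowest of the trimer in the SATB1-negative library, at 0.706 times Sf3a1, and the highest in the SATB1-positive library, at 1.27 times. Sf3a3 (ENSMUSG00000028902.4, plus strand of mm10 chromosome 4, 124714776 to 124732460) has 1 RefSeq-linked transcript, 2.71% shared words and no exon that overlaps one of another gene of the files.

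The SF3B subunits differed little between the libraries. Sf3b1, the branch point clamp, was at 87.0 and 105 FPKM, a log2 ratio of 0.27 and the highest of the group. Sf3b3 was at 83.8 and 93.7 FPKM, Sf3b2 at 132 and 138 FPKM, Sf3b4 at 151 and 143 FPKM and Sf3b5 at 114 and 109 FPKM. Their median log2 ratio was 0.07, and the ratios of all 5 lay within -0.08 and 0.27.

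**Figure D4:**
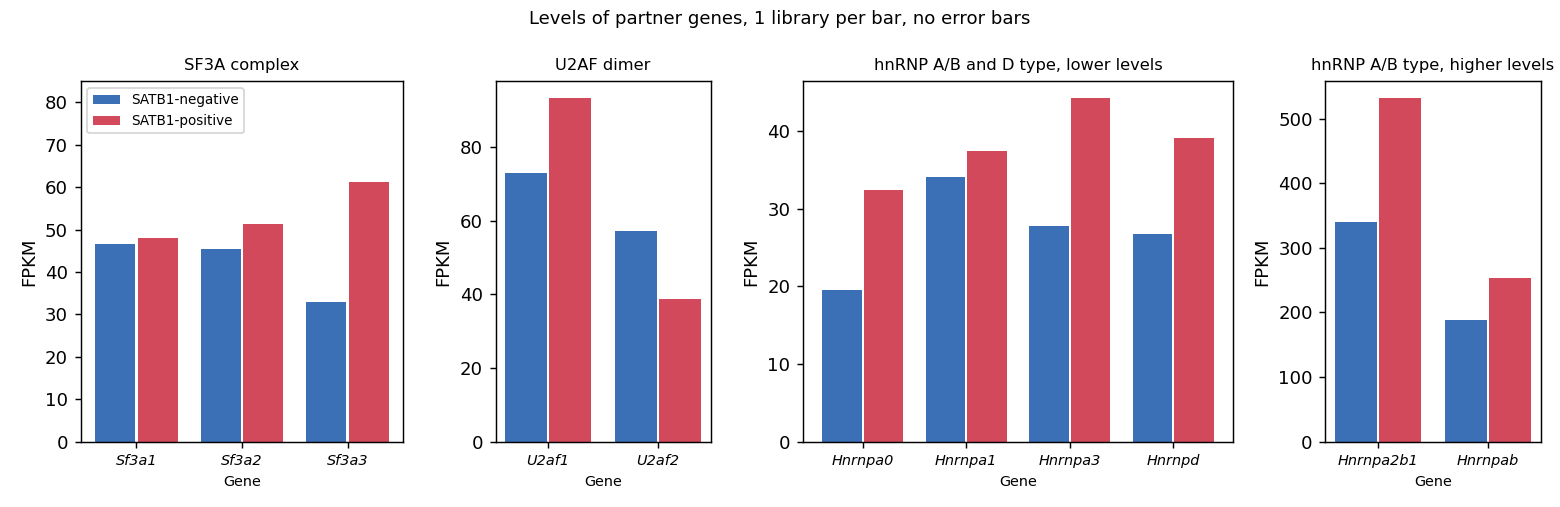
FPKM (y axis, each panel with its own scale from 0) of genes that encode partners in the SF3A trimer and the U2AF dimer and of the hnRNP A/B and D type, with 1 bar per library and no error bars. Sf3a3 passes Sf3a1 and Sf3a2 in the SATB1-positive library, and U2af2 is lower and U2af1 higher there.

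Among the factors of the 3′ splice site, the U2AF partners had log2 ratios of opposite sign. U2af2, the large subunit that binds the pyrimidine tract, was at 57.3 FPKM without and 38.8 FPKM with SATB1. It was 1.48-fold lower (1.40 to 1.56), with a log2 ratio of -0.55, the lowest of the 47 genes on the scale with 1 FPKM added. With 0.1 FPKM added, Srsf12, at under 1 FPKM in both libraries, was lower still, at -0.70 against -0.56. U2af1, the small subunit that reads the AG, was at 73.0 and 93.3 FPKM, a log2 ratio of 0.35. U2af2 stood at 0.785 times the level of U2af1 without and 0.416 times with SATB1. The paralogs of U2af1 were closer to level: U2af1l4 was at 36.1 and 40.0 FPKM and Zrsr2, which serves the minor spliceosome, at 14.6 and 15.7 FPKM. Sf1, the branch point protein that U2AF partners with, was at 85.1 and 101 FPKM. Shared words limit 3 of these genes: 29.1% for U2af2 and 53.5% for U2af1, mostly with pseudogenes, and 97.2% for U2af1l4, with transcripts of the annotated genes Gm49396 and Psenen.

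Prpf8, the central protein of the U5 particle, was at 57.2 and 52.2 FPKM. Luc7l2, a U1-associated factor of 5′ splice site choice, was at 21.5 and 17.8 FPKM, a log2 ratio of -0.26. Ddx41, a helicase of the late spliceosome, was at 39.0 and 43.2 FPKM. Of the 10 members known as mutated in myeloid neoplasms (Sf3b1, Srsf2, U2af1, Zrsr2, U2af2, Sf1, Sf3a1, Prpf8, Luc7l2 and Ddx41), 7 had a log2 ratio above 0. The share was 76.1% of the 46 measured members and 49.0% of all genes, so these 10 leaned upward no more than the members did. Of the 10, U2af2 alone passed the smaller size, which 5.1% of all genes passed as higher and 4.34% as lower.

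The other genes of splicing were taken from 8 lists, of which 146 genes were analysed and 141 had at least 5 FPKM. Their median log2 ratio was 0.05, and 90 of 145 measured genes, or 62.1%, were above 0, against 49.0% of all genes. Of the 141, 6, or 4.26%, passed the smaller size as higher and 0 as lower, against 5.1% and 4.34% of all genes. The share past the size as higher was thus near that of all genes. Snrnp70, the 70K protein through which SR proteins contact U1, was the 1 gene past a log2 ratio of 1, at 40.8 and 107 FPKM, a fold of 2.62 (2.49 to 2.76), with 0% shared words. The other 5 were Tnpo1, an import receptor of hnRNP A1 and other hnRNPs, at 11.9 and 24.8 FPKM, the phosphatase gene Ppp1cc at 189.9 and 295 FPKM, Prpf38b at 33.3 and 52.4 FPKM, the ubiquitin ligase gene Prpf19 at 10.95 and 17.6 FPKM, and the helicase gene Dhx15 at 89.0 and 128 FPKM.

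The U1 and Sm core list also holds genes outside that core, Dhx15 among them. Of its 21 genes with at least 5 FPKM, 2 passed the smaller size, Snrnp70 and Dhx15. The most abundant, the Sm protein gene Snrpb, was at 294 and 296 FPKM. The lowest was Prpf40b at 6.30 and 5.42 FPKM. The list's median log2 ratio was -0.03. None of the 19 SR-related proteins and coactivators passed; Son was the highest at 41.1 and 51.8 FPKM, Luc7l the lowest at 78.9 and 73.7 FPKM and Rbm39 the most abundant at 244 and 238 FPKM. Among the kinases, phosphatases and import factors of SR proteins, Clk4 was the lowest at 57.4 and 51.1 FPKM. The list summed to 569 FPKM without and 699 FPKM with SATB1, of which Ppp1cc, the most abundant, held 189.9 and 295 FPKM. For Ppp1cc, 58.8% of the words are shared with other genes, and the list's median log2 ratio was 0.07. None of the 13 exon junction and decay genes passed, with the decay helicase gene Upf1 highest at 43.2 and 60.7 FPKM, Upf3a lowest at 39.0 and 35.6 FPKM and Eif4a3 at 136 and 139 FPKM. None of the 7 minor spliceosome genes at 5 FPKM or more passed, from Zcrb1, also the most abundant, at 71.4 and 66.7 FPKM to Snrnp35 at 7.06 and 8.68 FPKM. Over all genes, 5.1% passed as higher and 4.34% as lower. With so few genes per list, a count of 0 differs little from those shares.

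The U4/U6.U5 and Prp19 lists each had 1 gene past the smaller size, named above. In the U4/U6.U5 list of 23 genes, Lsm7 was lowest at 47.4 and 39.5 FPKM and Txnl4a most abundant at 191 and 182 FPKM. In the Prp19 complex list of 20 genes, Snw1 was lowest at 124 and 107 FPKM and Ddx39b most abundant at 179 and 198 FPKM. None of the 27 tissue-variable regulators with at least 5 FPKM passed, against 5.1% of all genes as higher and 4.34% as lower. Their log2 ratios reached 0.43 at most. Raly was lowest at 58.2 and 48.8 FPKM, and Mbnl1, most abundant, was at 410.0 and 410.4 FPKM.

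**Figure D5:**
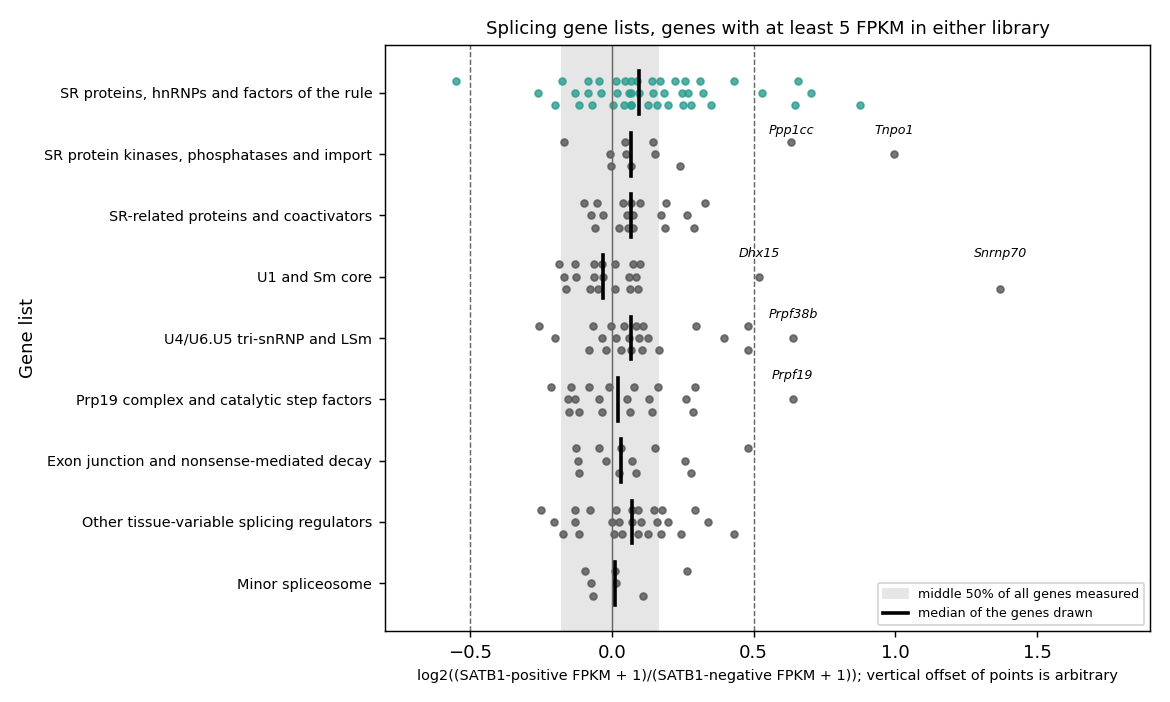
Log2 ratio (x axis) of each gene that had 5 FPKM or more in a library, for the 45 splicing factors of the name rule (green) and for 8 lists of other splicing genes (gray); black bars are medians of the points drawn, the gray band is the middle 50% of all genes measured and dashed lines mark 0.5 and -0.5. The gray points past the smaller size are all higher, with Snrnp70 at 1.37 the farthest, while the green points past it include U2af2 as lower.

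The 2 libraries also differed in markers of cell state and of other cells. Satb1 was at 2.37 and 8.26 FPKM. The 10 HSC and LSK markers were present in both, at a summed 1072 and 954 FPKM, and the 5 B cell markers summed to 1.21 and 1.51 FPKM. All 6 markers of cycling cells were higher in the SATB1-positive library, with sums of 472 and 701 FPKM. All 8 T and NK cell markers were higher (161 and 363 FPKM). Nkg7 alone held 152 and 313 FPKM of these sums, and 4 of the 8 reached 5 FPKM in a library. Also higher were all 4 markers of basophils and mast cells (153 and 547 FPKM) and 2 of 3 measured stroma and endothelium markers (24.3 and 61.8 FPKM). Neutrophil markers summed to 600.1 and 491 FPKM and erythroid markers to 41.0 and 49.1 FPKM. Their part in the ratios of the splicing factors was not tested. In bulk libraries a change in the share of cells of a type and a change of RNA per cell cannot be told apart.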

How the data were processed

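Libraries were made with the SMARTer Stranded kit from miRNeasy-extracted total RNA, per the labels' protocols. The authors deposited FPKM, per the file headers, in 23235 rows; 25 rows whose symbol had become a spreadsheet date were left out. Named in the submitters' processing notes are mm10, Cufflinks 2.2.1, TopHat2 2.0.13, SAMtools 0.1.19 and Bowtie2 2.2.3; the sources used here give no annotation or strand setting, so antisense reads cannot be told apart.

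With 1 library per group no test was run. Depth was read from the whole-fragment steps (tolerance 0.05) of low values of single-exon, single-transcript genes: 34920000 fragments without and 26900000 with SATB1, where 61.7% of 175 and 63.2% of 204 values came out whole. Depth and a length offset of 205 bases were searched for this share, so both are estimates. Fragments per gene used the shortest RefSeq-linked transcript, and intervals are exact (Clopper-Pearson). Symbols were matched to GENCODE M21 for all 47 members. Shared words are 50-base words of a gene's RefSeq-linked transcripts that occur in transcripts of other genes on either strand. Promoter windows came from RefSeq, with 43 members matched. The size rules were tried on simulated data with 4-fold changes and counting error only, so true changes near the smaller size were not tried. The depth search was tried on values simulated at the depths and offset it had found. Computation used Python 3.11.15, pandas 2.3.3 and scipy 1.17.1.

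Members and lists were chosen with earlier results of these data known. All members are accounted for; of each list the highest, lowest and most abundant gene is named, except the highest of the tissue-variable regulators, and the genes past a size. A gene of the lists was left out and is not reported here. The sizes' alternatives were pseudocounts of 0.1 and 5, 3 scalings, other filters and a 4-fold size.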

Additional observations from a re-analysis of the deposited data

How the results depend on the processing

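With other pseudocounts (0.1 and 5), scalings (TPM, median ratio, upper quartile) and filters, 0 splicing factors passed a log2 ratio of 1 in either direction, and at 0.5 the count stayed at 5 higher and 1 lower, except 4 higher with a pseudocount of 5. The median log2 ratio ran from 0.07 to 0.10 for the splicing factors and from 0.03 to 0.06 for the other splicing genes. One alternative chosen after seeing the data moved a count: among members with under 20% shared words, 4 were higher and 0 lower, since Hnrnpa3 and U2af2 leave. Of the 47 members, the sign of Hnrnpc, Hnrnpul2, Srsf4 and Srsf7 changed, each under upper-quartile scaling alone, which moved the median of all genes to -0.02. Among other splicing genes, 0 passed a 4-fold size, against 1 at 2-fold and 2 with a pseudocount of 0.1 or TPM, where Tnpo1 (0.997) crosses it, and 1 was lower at the smaller size with no minimum FPKM. Over all genes, the 122 higher and 64 lower became 68 and 36 with a pseudocount of 5 and 24 and 25 at a 4-fold size, and the lower 100 with TPM. At the smaller size the 475 higher and 404 lower became 300 and 211 with a pseudocount of 5 and 736 and 682 with no minimum, and the lower 615 with TPM. TPM values are about 2 times the FPKM, so more genes clear a fixed minimum and the pseudocount weighs less. No paired analysis was possible because each group has 1 library, and no replicate could be left out. Depth limits Srsf12 alone among the members, with under 100 fragments in each library.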

Other observations

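Of the members, 12 had a gene of the opposite strand starting within 1000 bases upstream. The share over all genes was not counted, so this number does not set the members apart from other genes. Besides Hnrnpa2b1 with Cbx3, the paralogous pair Hnrnpa1 and Cbx5 starts 616 bases apart; Cbx5 was at 28.5 FPKM without and 35.3 FPKM with SATB1, a log2 ratio of 0.30 beside 0.13 for Hnrnpa1. Lrrc40, which starts 23 bases from Srsf11, was at 24.6 and 23.2 FPKM, and Cog4, which starts 258 bases from Sf3b3 and overlaps it, at 18.0 and 17.7 FPKM. Mfsd11, which starts 726 bases from Srsf2, was at 9.89 and 7.69 FPKM, a log2 ratio of -0.33 beside 0.18 for Srsf2. Gla, which starts 54 bases from Hnrnph2, was at 1.38 and 3.903 FPKM, a log2 ratio of 1.04 beside 0.32 for Hnrnph2, but under 5 FPKM in both libraries. Rmi1, which starts 51 bases from Hnrnpk and overlaps it, was at 13.4 and 14.1 FPKM. Psenen, which starts 80 bases from U2af1l4, was at 73.8 and 64.0 FPKM, a log2 ratio of -0.20 beside 0.14. Ttc9c, which starts 677 bases from Hnrnpul2, was at 21.4 and 20.7 FPKM. The other three, Ccdc157 beside Sf3a1, Gm20337 beside Srsf5 and Pbld2 beside Hnrnph3, were between 0.242 and 1.47 FPKM.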
